A study of Mus musculus with 2 samples.

Results

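Eph receptors and ephrins are membrane proteins on opposing cell surfaces, and 7 of them with known expression in the intestinal crypt were examined here: the receptors Ephb2, Ephb3, Ephb4 and Epha2 and the ligands Efnb1, Efnb2 and Efna1. They were chosen by name, with earlier results of these data known. Each gene was represented by its brightest probe set among those annotated to exactly 1 gene symbol, and 6 of the 7 genes were measured in this way, of 17305 genes in all. Each of the 6 had 1 such probe set, and Ephb2 was not analysed here. The study set 1 array of grafted small intestinal epithelium against 1 array of control colonic epithelium. For the graft, small intestinal cells of an EGFP-transgenic mouse on a C57BL6 background were grown as organoids for 7 days, instilled into the colonic lumen of C57BL6 recipients and collected 4 weeks after transplantation. The control was normal colonic epithelium of a C57BL6 mouse that carried no graft. The sources used here do not give the promoter of the EGFP transgene or the age of the mice. Both epithelia were microdissected with a laser from serial sections, the sections of each specimen were combined, and the graft and colon samples of highest RNA integrity were put on the arrays.

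Eph receptors are receptor tyrosine kinases that are activated when they meet ephrins on a neighbouring cell, and the ephrins in turn signal into the cell that carries them. A-type ephrins are tethered to the membrane by a lipid anchor, whereas B-type ephrins span it. In the intestinal epithelium Wnt signalling at the crypt base is known to keep EphB receptors high and B-type ephrins low, and the repulsion between the 2 sets of cells keeps proliferating cells and Paneth cells in their places in the crypt.

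In these samples the largest difference among the measured B-type receptors and ligands was 1.24-fold, for Efnb1, which was lower in the graft. Without replicates, small differences do not show that levels are equal. The A-type pair differed in opposite directions. Efna1, the ligand, was 2.53-fold lower in the graft, and Epha2, its receptor, was 1.60-fold higher. At a threshold of 2-fold, 1 of the 6 measured genes was lower in the graft and 0 were higher. Among all 9392 genes that reached the median expression level of 5.48 (log2) on at least 1 array, 5.68% were at least 2-fold lower and 3.55% at least 2-fold higher, so 1 of 6 genes is too few to be read against that background. All levels are log2 values as the authors deposited them, and all differences are graft minus colon. With 1 array per group no difference has a replicate check and no test was made. The error available is the SD of 0.48 (log2) by which the graft-minus-colon difference varied between 2 probe sets of the same gene, over 586 genes. This SD belongs to a contrast of 2 probe sets, and for single genes it serves as a yardstick only. It leaves out variation between animals and in RNA amplification. By that measure 1 of the 6 genes was higher in the graft by more than the SD and 1 was lower by more than it, against 11% and 19.1% of the 9392 genes. The median difference of the 6 genes was 0.05, and that of the 9392 genes was -0.05.

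Among the B-type receptors, Ephb3, which is needed with Ephb2 for the ordering of crypt cells and for the place of Paneth cells at the crypt base, measured 5.78 on the graft array against 5.71 on the colon array. Its difference of 0.06 was far inside the SD between probe sets. Ephb4, the receptor of Efnb2 in vessel formation that is also found in intestinal epithelium, measured 6.33 on the graft array against 6.24 on the colon array, a difference of 0.08. Both receptors were above the median level on both arrays, and neither was separated between the samples by this measure. Ephb3 was not far above it, higher than 59.4% of probe sets on the graft array and 57.5% on the colon array. No detection call was used, so part of its signal may be background.

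Of the B-type ligands, Efnb1 measured 6.93 on the graft array against 7.24 on the colon array. That was 1.24-fold lower in the graft, a difference of -0.31, which was also inside the SD between probe sets. Efnb2, a ligand of several EphB receptors and of Epha4, measured 8.25 on the graft array against 8.20 on the colon array, a difference of 0.04, the smallest of the 6. The 4 B-type genes therefore spanned differences from -0.31 to 0.08, where the median absolute difference over the 9392 genes was 0.28.

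The A-type genes lay further apart. Epha2, a receptor widely expressed in epithelia, measured 6.31 on the graft array against 5.64 on the colon array. Its difference of 0.67 was 1.41 times the SD between probe sets and below the 2-fold mark. Of the 9392 genes, 648 (6.90%) had a difference at least as high. Efna1, which was first known as a cytokine-inducible gene and is the main high-affinity ligand of Epha2, measured 6.27 on the graft array against 7.61 on the colon array. The difference of -1.34 was 2.80 times the SD between probe sets, and 305 genes (3.25%) had a difference as low or lower. Both levels of both genes were above the median level. The colon level of Epha2 was the nearest to it, higher than 55.5% of the probe sets of that array.

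**Figure D1:**
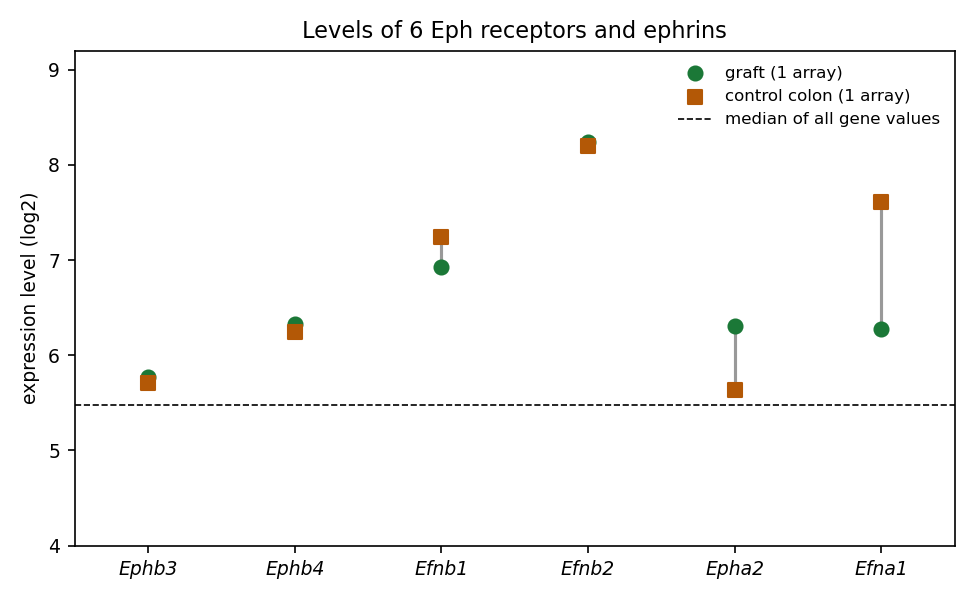
Expression level (log2, y axis) of the 6 measured genes on the graft array (green circles) and on the control colon array (orange squares), with a grey line joining the 2 values of a gene and a dashed line at the median of all gene values, 5.48. Each point is 1 array, so there are no error bars; the 2 symbols nearly coincide for Ephb3, Ephb4 and Efnb2 and are farthest apart for Efna1, at 6.27 against 7.61.

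Receptors and ligands known to bind each other were then set side by side as 4 pairs, by subtracting the ligand's difference from the receptor's. The SD of 0.48 was computed between 2 probe sets of the same gene. For a contrast of 2 genes it is again a yardstick only, and it leaves out variation between animals and in RNA amplification. For Ephb3 with Efnb1 the contrast was 0.37, for Ephb3 with Efnb2 it was 0.02 and for Ephb4 with Efnb2 it was 0.04. All 3 B-type pairs stayed within the SD. For Epha2 with Efna1 it was 2.01, which is a 4.03-fold higher ratio of receptor signal to ligand signal in the graft and 4.21 times the SD. Epha2 and Efna1 had the highest and the lowest difference of the 6 genes, so this pair had to give the widest contrast. The ratio shows that the 2 transcripts differed unequally between the samples. The levels of receptor and ligand cannot be compared with each other on an array, since each probe set has its own response.

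**Figure D2:**
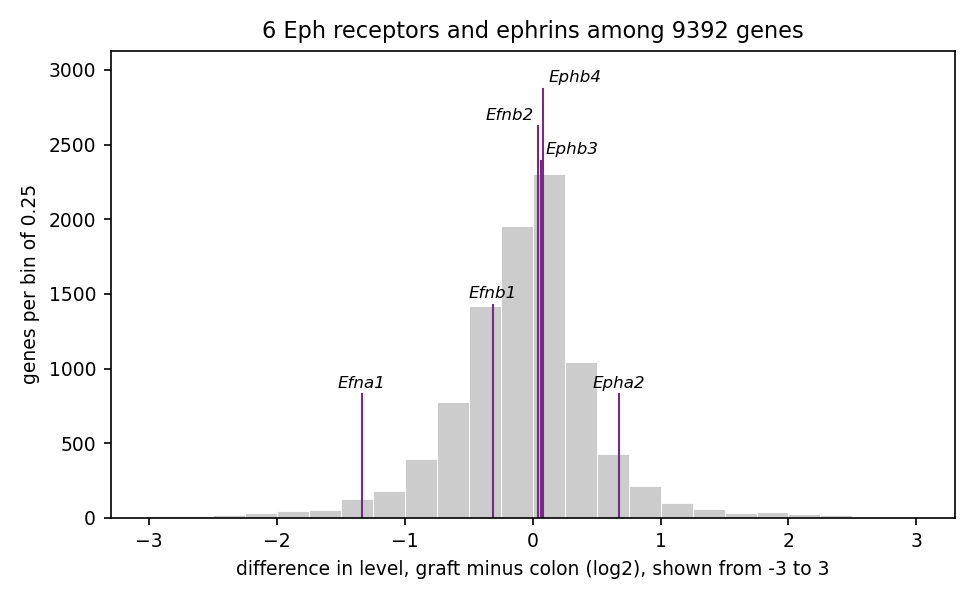
Distribution of the graft-minus-colon difference in level (log2, x axis, shown from -3 to 3) over the genes that reached the median level (grey bars, number of genes per bin, y axis), with the 6 genes marked by purple lines whose heights carry no value. The 4 B-type genes lie in the body of the distribution, from -0.31 to 0.08, Epha2 lies on its right flank at 0.67 and Efna1 on its left at -1.34; 94 genes outside the plotted range are not shown.

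The rest of the family gave a reference for the 6 genes. Of the 15 other Eph receptors and ephrins, 12 were measured, and Epha3, Epha5 and Epha6 were not analysed here. Of the 12, 3 reached the median level and 9 stayed below it on both arrays. The receptor Epha1 measured 5.73 on the graft array against 5.70 on the colon array. Epha4, which binds ephrins of both types, measured 5.73 on the graft array against 5.57 on the colon array, a difference of 0.16. Efna4, an A-type ligand, measured 5.58 on the graft array against 5.26 on the colon array. Its difference of 0.32 was the largest of the 12 and was inside the SD between probe sets. None of the 12 was 2-fold apart, and their differences ran from -0.19 for Efna3 to 0.32. Their median was 0.00, as it was over all 17305 genes.

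Most of the other family genes were too dim for a difference to be read. The receptors Epha7 and Ephb6 lay below the 20th percentile of both arrays, which was 4.75 on the graft array and 4.74 on the colon array. Epha8, Epha10, Ephb1 and Efnb3 had exactly the same value on both arrays. The table holds 2910 probe sets with such equal values (12.1%), and how they came about is not stated. Epha10 and Ephb1 each had a second probe set. That of Epha10 had a difference of 0.05, and that of Ephb1 again had equal values.

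**Figure D3:**
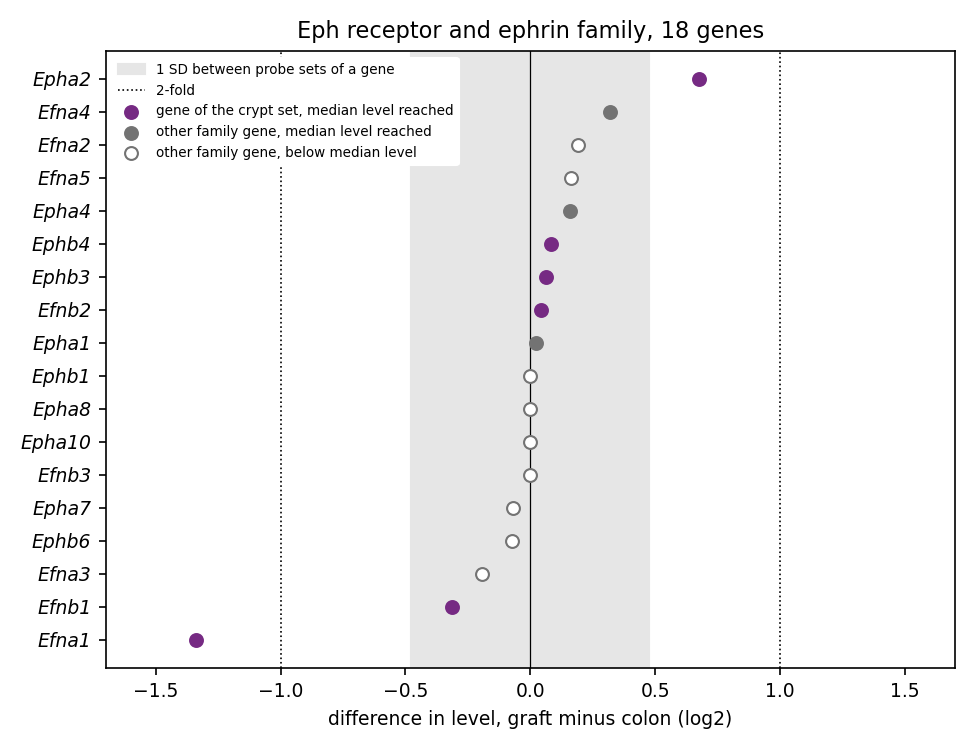
Graft-minus-colon difference in level (log2, x axis) of the 18 measured Eph receptors and ephrins, ordered by that difference, with the 6 genes of the crypt set in purple, the other family genes in grey and open symbols for genes below the median level on both arrays. The grey band is 1 SD between probe sets of a gene (0.48) and the dotted lines mark 2-fold; Epha2 at 0.67 and Efna1 at -1.34 are the points outside the band.

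Efna1, Efna3 and Efna4 follow each other in the RefSeq gene order of assembly GRCm38.p6. The neighbouring genes were looked up after their values were seen. Efna1 had the difference of -1.34, while Efna3 had -0.19 and Efna4 had 0.32. On the other side of Efna1 the next 3 protein-coding genes were Slc50a1, a sugar transporter, with a difference of -0.28, Dpm3, a subunit of a mannose transferase complex, with -0.41, and Krtcap2, a subunit of the oligosaccharyltransferase, with -0.11. Beyond Efna4 lay Adam15, a membrane metalloprotease, with -0.59. No neighbour among these 6 was 2-fold apart, and Efna3 was below the median level on both arrays. Among the 9392 genes, 3.55% passed 2-fold towards the graft and 5.68% towards the colon, so 6 neighbours are too few to be read against these shares. Around all the crypt genes measured here, 30 neighbours were measured. The graft array was higher by 2-fold or more for 1 of them and the colon array for 2. Whether the difference was particular to Efna1 was not tested.

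Among proteins that carry Eph and ephrin signals into the cell, 1 gene passed 2-fold. Of 38 listed effectors, adaptors and proteases 34 were measured, of which 23 reached the median level. Of those 23, 1 passed 2-fold towards the graft and 0 towards the colon, beside 3.55% and 5.68% of all 9392 genes, and the median difference was -0.02. By more than the SD between probe sets, 4 of the 34 were higher and 2 lower, beside 1107 and 1881 of all 17305 genes. Among the 9392 genes that reached the median level the shares were 11% and 19.1%. The gene that passed was Vav2, a signalling protein that acts downstream of Eph receptors, with 6.05 on the graft array against 5.03 on the colon array. Its difference was 1.02 and its colon level was below the median of the arrays. The other genes of this list beyond the SD were picked for naming after their values were seen. Rgs3, a regulator that links B-type ephrins to G protein signalling, had a difference of 0.65 and the kinase Abl1 had 0.60. Samd5 had 0.51 but was below the median level on both arrays. Cbl, a ubiquitin ligase that ends signalling by receptor kinases, had -0.51. Nck1, an adaptor that links activated receptors to the actin cytoskeleton, had the lowest difference of the list, -0.71. Genes inside the SD were named for their known role, also after their values were seen. Adam10, the protease that cuts ephrins and E-cadherin at cell contacts, had a difference of 0.28. The GTPases Rhoa, Rac1 and Cdc42, which shape the actin cytoskeleton, had differences of 0.03, -0.30 and -0.02. Rgs3 and Rhoa had 2 probe sets each, and only the brighter one is given.

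Because Ephb2 and Ephb3 are known targets of Wnt signalling, the other Wnt target genes of the crypt were tabulated. Of 23 listed genes 22 were measured, and 16 of these reached the median level. Of the 16, 1 passed 2-fold in each direction, beside 3.55% of all 9392 genes towards the graft and 5.68% towards the colon, with a median difference of 0.00. Cd44, an adhesion receptor, was the higher one, at 7.74 against 5.94, and the stem cell receptor Lgr5 was the lower one, at 5.10 against 6.47. By more than the SD between probe sets, 4 of the 22 were higher and 2 lower, beside 1107 and 1881 of all 17305 genes. Among the 9392 genes that reached the median level the shares were 11% and 19.1%. The others beyond the SD, picked after their values were seen, were the cell cycle regulators Ccnd1 with 0.61 and Myc with 0.59, the transcription factor Sp5 with 0.58 and Znrf3, a membrane ubiquitin ligase that removes Wnt receptors, with -0.52. Ephb3, with its difference of 0.06, was inside the SD, as were Sox9, a transcription factor of crypt base cells, with 0.05 and Axin2, a feedback inhibitor of the pathway, with -0.24. Among 6 nuclear effectors of the pathway none was 2-fold apart, and their differences ran from -0.55 for the DNA-binding factor Tcf7l2 to 0.79 for the coactivator Bcl9. The 2 genes of all lists whose pair of levels lay nearest to that of Efna1, by Euclidean distance over the 2 arrays among 153 listed genes, were the smooth muscle actin gene Acta2 at a distance of 0.59 and the tight junction gene Ocln at 0.71. With 2 arrays such closeness says only that both levels were alike.

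**Figure D4:**
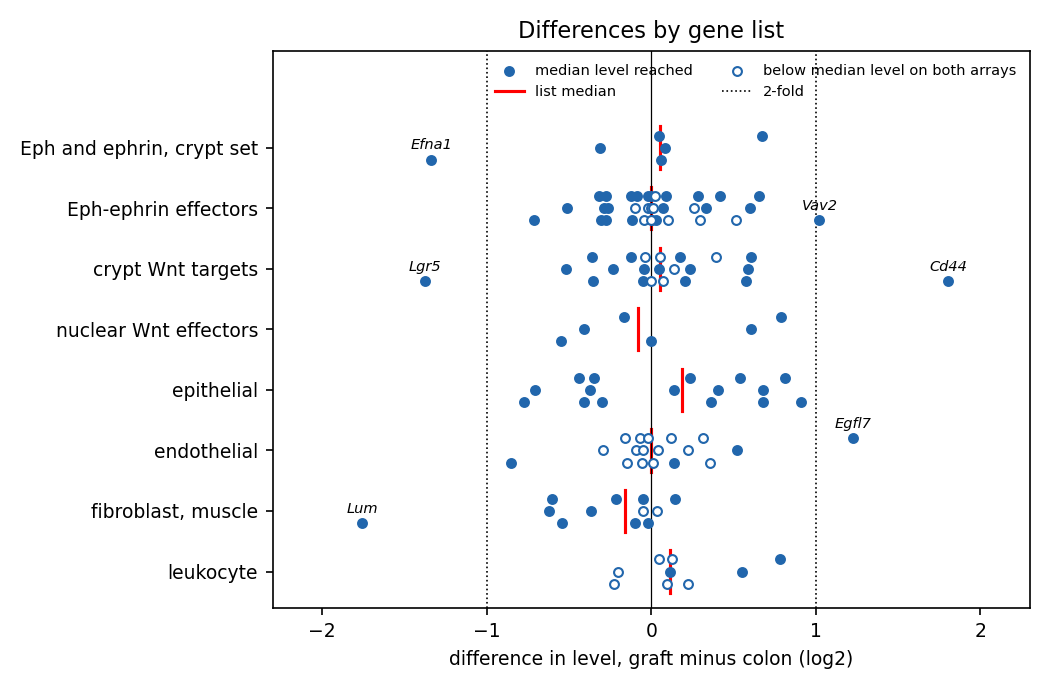
Graft-minus-colon difference in level (log2, x axis) of every measured gene of 8 gene lists (rows), with filled circles for genes that reached the median level on at least 1 array, open circles for the others and a red bar at each list's median. Dotted lines mark 2-fold and the genes at or beyond it are named; the medians lie between -0.16 for fibroblast and muscle genes and 0.19 for epithelial genes.

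The tissue labels were set beside regional and cell type markers. These lists were chosen with earlier results of these data known, so they are no independent check of the labels. The graft array was the higher one by at least 2-fold for all 10 small intestinal markers, and the colon array for all 9 measured colonic markers, with medians of 5.27 and -3.55. None of 16 general epithelial genes was 2-fold apart, and all 16 reached the median level, with a median difference of 0.19. Fewer cells of a type and less RNA per cell cannot be told apart in such samples, and this bears on Efna1, Efnb2 and Ephb4, which are also made by endothelial cells, and on any gene shared with stroma. Of 18 endothelial markers 14 stayed below the median level on both arrays, among them Pecam1 and Cdh5, which define the cell type, with differences of -0.29 and -0.09. Egfl7, a protein secreted by endothelial cells, passed 2-fold towards the graft with 1.23, and 0 passed it towards the colon. Beyond the SD lay also Plvap with 0.52 and the venous factor Nr2f2 with -0.85. Summed over all 18, the endothelial marker level (log2 of the sum) came to 9.34 on the graft array against 9.26 on the colon array. Since most of these markers were dim, the sum may be largely background and does not measure endothelial content. Of 12 fibroblast and smooth muscle markers 1 passed 2-fold towards the colon, Lum at -1.76. By more than 0.48, 4 of the 12 were lower, beside 1881 of all 17305 genes and 19.1% of the 9392 that reached the median level. The median of the 12 was -0.16, with Col1a1 at -0.02 and Col1a2 at 0.15. Their summed level, again as log2, came to 9.67 on the graft array against 10.09 on the colon array. Lum and Dcn, the latter with -0.62, had the lowest differences of the 12, and Col3a1 had -0.10. Of 10 leukocyte markers 9 were measured, with log2 summed levels of 8.53 on the graft and 8.32 on the colon array. Of the 9, 6 stayed below the median level on both arrays, so these sums too may be largely background. Ptprc, the pan-leukocyte phosphatase, with 0.78 and Cd68, a macrophage marker, with 0.55 were higher by more than the SD, and 0 were lower by more than it. The median of the 9 was 0.11, and Adgre1 and Cd3g lay the other way, at -0.23 and -0.20. Of all 17305 genes, 1107 were higher by more than the SD, and of the 9392 that reached the median level 11% were. The part of these cell types in the difference of Efna1 or Epha2 was not tested.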

How the data were processed

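Total RNA, 4.33 ng per sample per the labels' protocols, was amplified, labelled with biotin and hybridised to single-channel arrays, 1 per group. The authors deposited a table of log2 levels for 24074 probe sets. Its scale was inferred from a range of 4.19 to 13.46. Software, background correction and normalization are not stated. Over all probe sets the columns had medians of 5.44 and 5.43, and whether the authors centred the arrays stays unknown. No detection call was used, so low levels may be background.

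The platform's annotation gave 1 gene symbol for 18904 probe sets, several for 1330 and none for 3840. The Entrez identifiers of all 18 measured family genes were matched to RefSeq (GRCm38.p6). A gene with several probe sets was represented by the one that was brightest on average. Of 17305 genes, the 9392 whose higher value reached the median of 5.48 entered the counts. Differences were counted at 2-fold, with no test. The 2-fold cut was run on simulated data in which bright probe sets were given differences beyond 2-fold. That run checked the code and says nothing about the differences reported here. The genes and lists were chosen with earlier results of these data known. By rule, the text names the 6 genes, family genes that reached the median level, effector and Wnt genes at least 2-fold apart and the nearest listed genes of Efna1. Other genes are marker genes, ends of a list's range or genes picked after their values were seen. Python 3.11.15, pandas 2.3.3 and numpy 2.4.6 were used. Precision is limited by the number of arrays.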

Additional observations from a re-analysis of the deposited data

How the results depend on the processing

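The alternatives were averaging all probe sets of a gene, quantile normalization, median centring, no filter on low values, and a filter that both arrays had to pass. Centring used each array's median over the 9392 genes, 6.37 on the graft and 6.47 on the colon array, not the medians of all probe sets. It adds the same 0.10 to the difference of each of the 6 genes, so their shifts under centring are no separate checks. Quantile normalization and centring, the 2 alternatives that could move the 6 genes, left all 12 recomputed differences with the same sign and within 0.48 of the reported value, with a largest shift of 0.10. Efna1 ran from -1.34 to -1.24 and Epha2 from 0.67 to 0.77, and the count of 1 gene at least 2-fold lower and 0 higher was the same under both. The other 3 could not change that count, because each of the 6 genes has 1 probe set and passes both filters. Over all genes, the filter on both arrays left 171 genes at least 2-fold higher (2.16%) and 355 lower (4.49%), because it tests 7913 genes and removes those that are dim on 1 array. The second brightest probe set was not run, since none of the 6 genes has one. No replicate could be left out with 1 array per group. No paired analysis was possible because the groups hold 1 array each.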
